A study of Arabidopsis thaliana with 4 samples.

Results

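Beta-glucosidase (BGLU) genes encode members of glycoside hydrolase family 1, enzymes that remove a sugar from a small molecule. Plants store hormones, lignin precursors, flavonoids and defence compounds as inactive glucosides, and BGLU enzymes in the cell wall, the vacuole or the endoplasmic reticulum release the active form. Different members act on different glucosides, so the family is described here enzyme by enzyme. The 10 genes were chosen by signal: they have the brightest probe sets among the annotated genes whose symbol is BGLU followed by a number. The annotation used named a single-gene probe set for 20 such genes, among 13350 named genes in all, and each of the 20 had 1 probe set. RefSeq holds 40 BGLU symbols, and 8730 probe sets other than controls had no gene name. Further BGLU genes may therefore be on the array without a name. Brightness was the mean log2 signal over the 4 arrays, so the brightness of the members is not a result. The tenth gene, BGLU45, had a mean deposited log2 signal of 3.64, and the next, BGLU41, had 3.51.

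The arrays compared leaf primordia of the mutant an3-4 with those of wild type, 2 arrays each, both genotypes in the ecotype Col-0. ANGUSTIFOLIA3 (AN3) is a coactivator of transcription that keeps cells dividing in young leaves, and the study compared transcripts of its mutant with those of wild type. All plants grew at 22 °C under continuous light, and the first set of leaf primordia was taken 7 days after sowing. No other treatment or transgene is named in the labels, and they do not say whether plants were pooled. Nothing in the labels says that the 2 replicates of a genotype were grown separately, so the p-values measure the spread between these arrays only, which may be technical.

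Array signals are Affymetrix signal intensities on a linear scale, here with all arrays at 1 trimmed mean of 155.5. Across the 13648 probe sets tested, the correlation of log2 signals was 0.989 for the an3-4 arrays, 0.988 for the wild-type arrays and 0.968 to 0.969 across genotypes. These values are taken across probe sets, and probe sets are no replicates. The mutation was not checked against its own transcript, because 0 probe sets are named for AN3. Of the tissue markers listed, the leaf genes LHCB4.2 and PSAE-1 lay above 99% of probe sets on their brightest arrays, at the 99.4th and 99.9th percentile. The root-hair expansin genes EXPA7 and EXPA18 and the shoot meristem gene CLV3 reached at most the 30.5th, 40.2nd and 35.5th percentile, and the guard cell and myrosin cell gene FAMA the 43.0th. The log2 fold change of an3-4 over wild type was -0.39 ± 0.10 for LHCB4.2 (limma adjusted p = 0.0198, or 0.565 on the deposited scale, 0.186 without an3-4 replicate 2 and 0.157 without wild-type replicate 1). For PSAE-1 it was 0.20 ± 0.08 (limma adjusted p = 0.128). Their part in the results on BGLU genes was not tested. No listed marker of epidermis, vascular tissue or seed storage was named on the array. Brightness also depends on the probes, so these percentiles and the order of the members by brightness do not compare transcript levels between genes.

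In an3-4, 3 of the 9 BGLU genes that could be tested rose and none fell in limma (adjusted p under 0.05), where 12.4% of all 13648 probe sets tested were called, 6.57% higher and 5.79% lower. BGLU46, a monolignol glucosidase gene, rose 2.2-fold. It passed the signal filter mainly through its an3-4 signals, so the count of 3 of 9 depends partly on that rise. BGLU33, which encodes a vacuolar enzyme that frees abscisic acid from its glucose ester, rose 1.89-fold. BGLU44, whose enzyme acts on beta-mannosides, rose 1.35-fold. BGLU16, BGLU42, BGLU40, BGLU15, BGLU25 and BGLU47 did not pass the test. BGLU45, the neighbour of BGLU46, was too dim for the test and had higher signals on both an3-4 arrays.

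**Figure D1:**
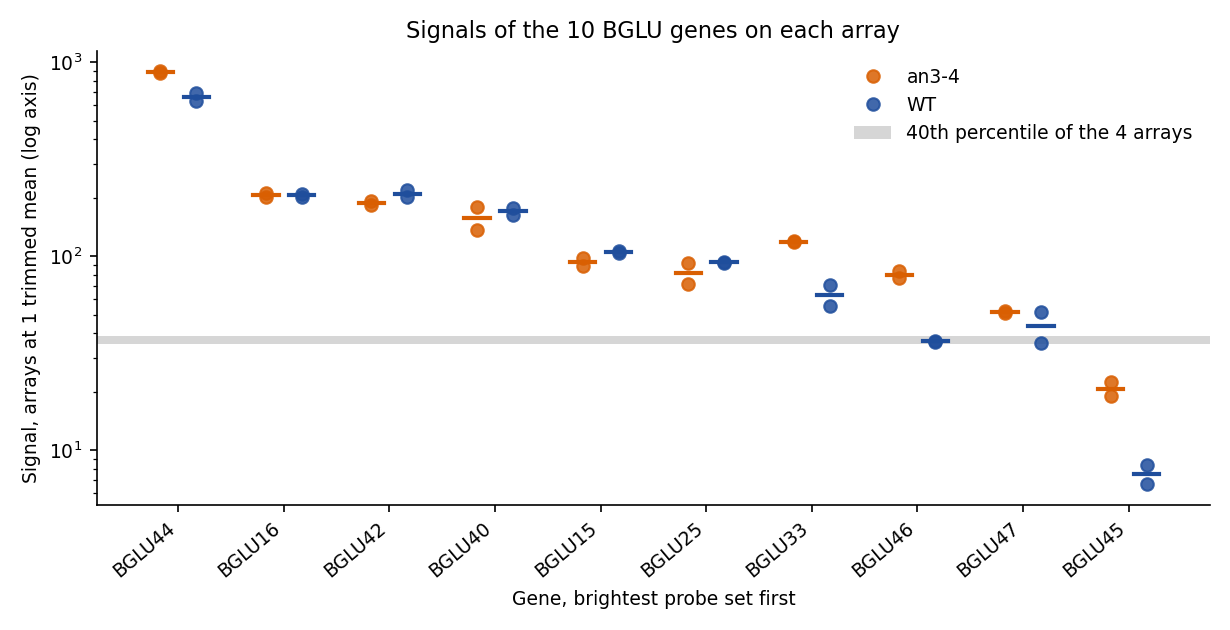
Signals of the 10 BGLU genes on each array, with all arrays at 1 trimmed mean, on a log axis. Each point is 1 array, each short line the mean of 2, and the grey band spans the 40th percentiles of the 4 arrays. The an3-4 points lie above both wild-type points for BGLU44, BGLU33, BGLU46 and BGLU45, and all 4 points of BGLU45 lie under the band.

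Monolignol glucosidases act on coniferin and related glucosides of the lignin building blocks. BGLU46 (AT1G61820, chromosome 1, probe set 264280_at) had signals of 83.9 and 76.8 on the an3-4 arrays, against 36.3 and 36.5 on the wild-type arrays. The genotypes did not overlap, and the lower an3-4 signal was 2.1 times the higher wild-type signal. The mean was 80.3 ± 5.04 in an3-4 and 36.4 ± 0.118 in wild type (SD, n = 2 each). The log2 fold change of an3-4 over wild type was 1.14 ± 0.19 (SE, limma adjusted p = 0.00123), with a 95% interval of 0.74 to 1.55. Of all tested probe sets, 0.542% had a rise at least as large. The call held under every alternative in which BGLU46 was tested, and with no signal filter the limma adjusted p was 0.0121. Its wild-type signals lay at the 39.3rd and 40.6th percentile of their arrays, close to the 40% limit of the filter. BGLU46 thus passed the filter mainly through its an3-4 signals. One wild-type array had BGLU46 under its 40th percentile, and raising that signal to the percentile gave a log2 fold change of 1.11.

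BGLU45 (AT1G61810, probe set 264433_at) encodes another monolignol glucosidase and is the next protein-coding gene to BGLU46 on chromosome 1. Its signals were 22.5 and 19.0 on the an3-4 arrays, against 8.38 and 6.7 on the wild-type arrays. The lower an3-4 signal was 2.27 times the higher wild-type signal, so the genotypes did not overlap. All 4 signals lay between the 16.7th and the 32.5th percentile of their arrays, under the filter that set aside the dimmest 40% of probe sets. BGLU45 was among the 10 brightest through its an3-4 signals: as deposited these were 20.6 and 20.7, against 7.7 and 7.3 in wild type, while the excluded BGLU41 had 12.3 and 12.7 in an3-4, against 12.9 and 8.32 in wild type. Its log2 fold change of 1.46 is therefore a description, partly fixed by the way the members were chosen, and is given with no test. Raising all 4 signals to the 40th percentile of their arrays gave 0.06, a value that depends on the percentiles alone. Whether the probes of BGLU45 also bind BGLU46 transcripts was not tested.

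BGLU47 (AT4G21760, chromosome 4, probe set 254371_at) belongs to the same subgroup of the family by sequence. It had signals of 51.0 and 52.3 on the an3-4 arrays, against 51.3 and 35.7 on the wild-type arrays. The genotypes overlapped, and the wild-type arrays differed more from each other than the an3-4 arrays did. The log2 fold change was 0.27 ± 0.23 (limma adjusted p = 0.516), with a 95% interval of -0.22 to 0.76. Whether its change differs from that of BGLU46 was not tested.

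The glycosyltransferases of the UGT72 group attach the glucose that these enzymes remove. All 5 listed UGT72 genes were named on the array and 4 were bright enough to test. None was called, beside 12.4% of all probe sets tested. UGT72B3 had signals of 93.3 and 69.9 in an3-4, against 64.4 and 57.6 in wild type, or 0.41 ± 0.18 higher in log2 fold change (limma adjusted p = 0.188). UGT72E1, a monolignol glucosyltransferase gene, had 45.9 and 39.7 in an3-4, against 33.5 and 35.5 in wild type, or 0.31 ± 0.23 higher in log2 fold change (limma adjusted p = 0.466). The log2 fold changes of UGT72E2 and UGT72B1 were 0.08 and 0.02. UGT72E3 was under the filter, with signals of 2.12 and 3.17 in an3-4, against 4.28 and 3.53 in wild type. Over the 4 tested genes the log2 fold change had a median of 0.19, beside 0.02 over all probe sets tested.

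BGLU45 and BGLU46 lie among genes of which several were lower in an3-4. Of the 20 nearest named genes past the filter, 10 on each side of the pair, 6 were lower, 1 was higher and 13 were not called. Over all probe sets tested, 5.79% were lower and 6.57% were higher (limma adjusted p under 0.05). The largest decline among the 20 was that of AT1G61740, with a log2 fold change of -1.01, and the rise was that of AT1G61667, at 0.77. On the deposited scale 1 of the 20 was lower and none higher. This stretch of chromosome 1 was known from earlier results of these data to hold many lower genes. BGLU46 had the opposite sign to 6 of the 7 called genes around it.

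**Figure D2:**
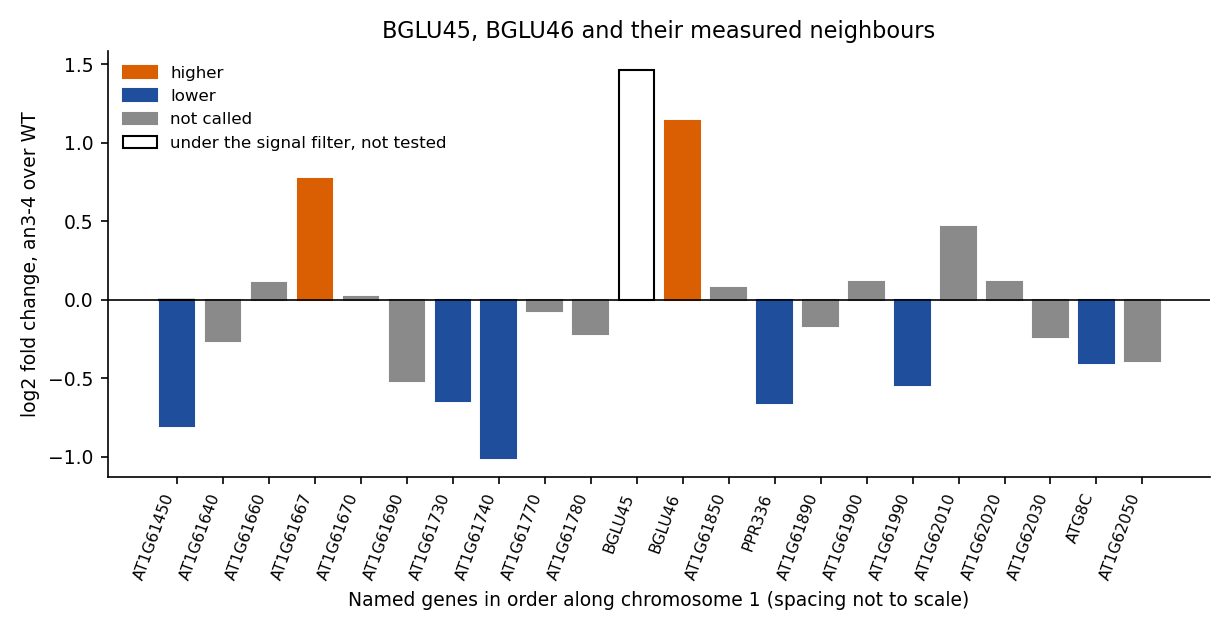
Log2 fold change of an3-4 over wild type for BGLU45, BGLU46 and the 10 nearest named genes past the signal filter on each side, in their order along chromosome 1. Orange bars were called higher, blue bars lower and grey bars not called in limma, and the open bar of BGLU45 was not tested. BGLU46 is at 1.14, and its neighbours past the filter range from -1.01 to 0.77. The 1.46 of BGLU45 comes from signals under the filter and was partly fixed by the way the members were chosen.

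BGLU33 (AT2G32860, chromosome 2, probe set 267645_at) had signals of 118 and 119 on the an3-4 arrays, against 55.6 and 71.0 on the wild-type arrays. Both an3-4 arrays lay close together and above both wild-type arrays, which differed more from each other. The mean was 119 ± 0.939 in an3-4 and 63.3 ± 10.9 in wild type (SD, n = 2 each). The log2 fold change was 0.92 ± 0.16 (limma adjusted p = 0.00183), with a 95% interval of 0.57 to 1.26. Without wild-type replicate 1 the log2 fold change was 0.74, and without wild-type replicate 2 it was 1.09, and both kept the call. Of all tested probe sets, 1.13% had a rise at least as large. None of the 20 nearest named genes past the filter was higher, and 1 was lower, beside 6.57% higher and 5.79% lower over all probe sets tested.

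Abscisic acid is stored as a glucose ester made by glucosyltransferases of the UGT71 group. Of the 16 other genes listed for abscisic acid metabolism 2 were named on the array and 1 could be tested. UGT71C5, which makes the glucose ester, had signals of 109 and 98.0 in an3-4, against 104 and 85.8 in wild type. Its genotypes overlapped, and its log2 fold change was 0.13 ± 0.15 (limma adjusted p = 0.663). UGT71B6, another such enzyme, was under the filter, with signals of 0.513 and 1.0 in an3-4, against 2.24 and 0.606 in wild type. The genes that make abscisic acid and those that degrade it were not analysed here.

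BGLU44 (AT3G18080, chromosome 3, probe set 258151_at) had signals of 882 and 896 on the an3-4 arrays, against 629 and 693 on the wild-type arrays. The genotypes did not overlap, and the lower an3-4 signal was 1.27 times the higher wild-type signal. The mean was 889 ± 9.9 in an3-4 and 661 ± 45 in wild type (SD, n = 2 each). The log2 fold change was 0.43 ± 0.08 (limma adjusted p = 0.00429), with a 95% interval of 0.25 to 0.61. A rise at least as large was seen in 7.18% of all tested probe sets. The call was lost on the deposited scale, where same-numbered arrays share a scale and the adjusted p was 0.561, and without the intensity trend, where it was 0.0638. The log2 fold change was 0.43 in both. BGLU43, the adjacent gene, had signals between 0.412 and 9.03, and was too dim to be tested.

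**Figure D3:**
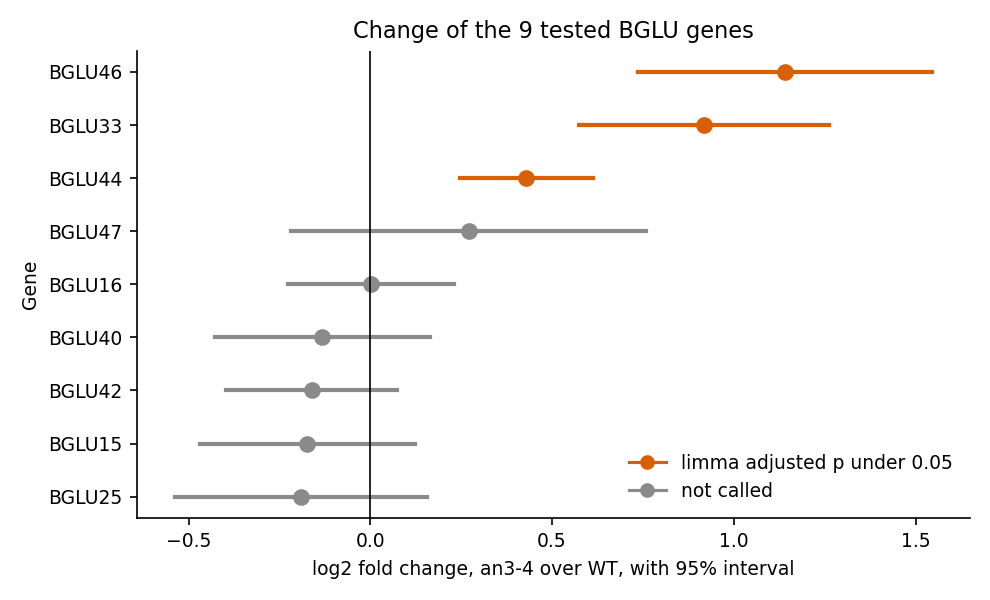
Log2 fold change of an3-4 over wild type for the 9 BGLU genes tested, with 95% intervals from limma. Orange marks the 3 genes with an adjusted p under 0.05, whose intervals lie above 0, and the intervals of the 6 grey genes include 0.

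The other 5 tested genes had small differences, and the intervals show how large a change the arrays leave possible. BGLU16 (AT3G60130) had signals of 212 and 201 in an3-4, against 202 and 210 in wild type. The genotypes overlapped fully, and the ratio of an3-4 over wild type was 1.0 with a 95% interval of 0.855 to 1.17 (limma adjusted p = 0.994). BGLU42 (AT5G36890), which acts in roots on the coumarin glucoside scopolin and in systemic resistance, had 193 and 183 in an3-4, against 201 and 220 in wild type. Both of its an3-4 signals were below both wild-type signals, but the ratio of 0.895 did not pass (95% interval 0.76 to 1.05, limma adjusted p = 0.405).

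BGLU40 (AT1G26560) had signals of 178 and 136 in an3-4, against 177 and 164 in wild type. The an3-4 arrays differed more from each other than the genotypes did, and the ratio was 0.913 (95% interval 0.743 to 1.12, limma adjusted p = 0.615). BGLU25 (AT3G03640) had 71.5 and 92.4 in an3-4, against 93.3 and 92.3 in wild type, with 1 low an3-4 array and a ratio of 0.876 (95% interval 0.689 to 1.11, limma adjusted p = 0.520). BGLU15 (AT2G44450), whose enzyme takes glucose from flavonol glycosides, had 89.2 and 97.3 in an3-4, against 104 and 106 in wild type. Its genotypes did not overlap, but the ratio of 0.887 did not pass (95% interval 0.722 to 1.09, limma adjusted p = 0.489).

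Both tested glycosyltransferase genes of flavonols fell in an3-4. Of the 13 other genes on that list 3 were named on the array, and 2 were tested. Over all probe sets tested 5.79% were lower, or 1.44% on the deposited scale. UGT78D2, which adds glucose to flavonols and anthocyanidins, had signals of 273 and 263 in an3-4, against 526 and 460 in wild type, and its log2 fold change was -0.88 ± 0.10 (limma adjusted p = 6.2e-05). UGT78D1, which adds rhamnose to flavonols, had 354 and 335 in an3-4, against 474 and 441 in wild type, and its log2 fold change was -0.41 ± 0.09 (limma adjusted p = 0.0106). On the deposited scale UGT78D2 kept its call (adjusted p = 0.0102) and UGT78D1 did not (adjusted p = 0.701). UGT78D1 also lost its call without an3-4 replicate 2 (adjusted p = 0.0786) and without wild-type replicate 1 (adjusted p = 0.0727). Whether these changes differ from that of BGLU15 was not tested.

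The share of BGLU genes called, 3 of 9, stands beside the 12.4% of all probe sets called, and 9 genes chosen with earlier results known allow no test of that difference. The 3 include BGLU46, which passed the signal filter mainly through its an3-4 signals. The median log2 fold change of the 9 was 0.00, beside 0.02 over all probe sets tested. Signals on both an3-4 arrays lay above both wild-type signals for 3 of the 9 genes and below them for 2. Over all tested probe sets these shares were 29.6% above and 23.9% below, so the absence of overlap alone is about as common among the 9 as elsewhere. On the deposited scale, 2.88% of probe sets were called and 1.44% were higher, beside 2 of the 9, BGLU46 and BGLU33. With 2 arrays in each genotype the smallest p of an exact permutation test is 0.333, and every call here therefore depends on the spread that limma pools over probe sets. In whole primordia, fewer cells of a type and less RNA per cell cannot be told apart.

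**Figure D4:**
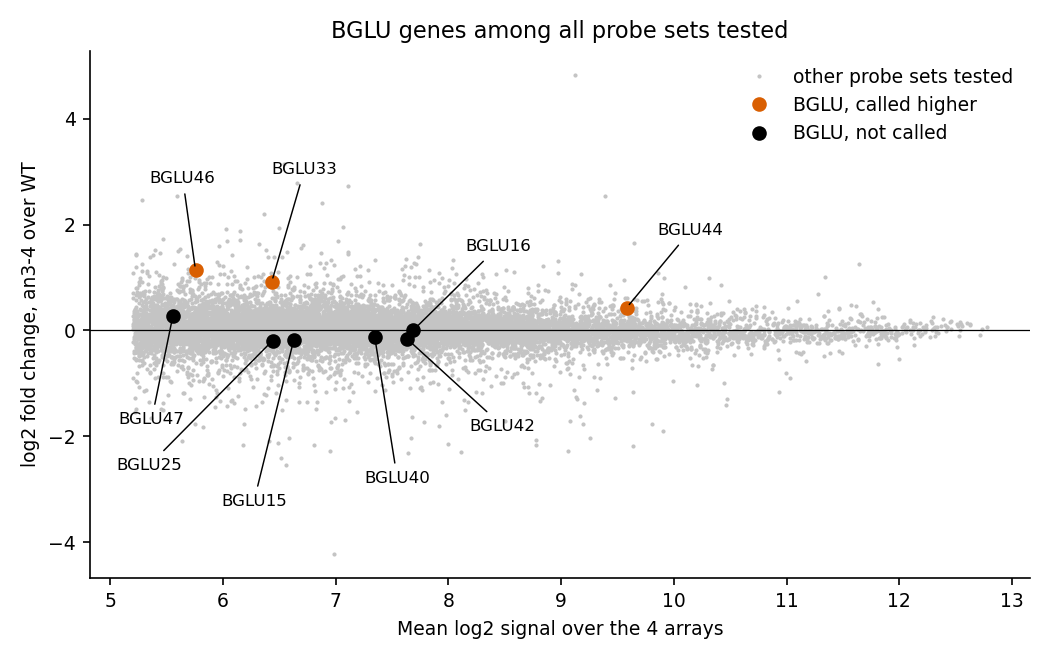
Log2 fold change of an3-4 over wild type against mean log2 signal for the 13648 probe sets tested, with the 9 BGLU genes marked. A rise at least as large as that of BGLU46 was seen in 0.542% of the probe sets, as that of BGLU33 in 1.13% and as that of BGLU44 in 7.18%, and the 6 black genes lie between -0.19 and 0.27.

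The 10 BGLU genes outside the brightest 10 gave no usable comparison. These were BGLU41, BGLU28, BGLU27, BGLU31, BGLU29, BGLU19, BGLU36, BGLU32, BGLU24 and BGLU43. None passed the signal filter, and their signals ran from 0.217 to 16.6, at most the 29.2nd percentile of an array. With every probe set tested none was called in limma (lowest adjusted p = 0.192), where 5.16% of all probe sets were, and 1, BGLU32, had an unadjusted p under 0.05. BGLU28, a sulfur-deficiency gene that lies next to BGLU15, had 9.57 and 5.57 in an3-4, against 14.7 and 16.6 in wild type, and did not pass (adjusted p = 0.393). A further probe set matched both BGLU21 and BGLU22 and was left out by the rule, with signals of 7.94 and 8.46 in an3-4, against 9.73 and 14.8 in wild type.

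PYK10, the beta-glucosidase also numbered BGLU23, is the main protein of the endoplasmic reticulum bodies of seedlings and roots. It had signals of 4236 and 4474 in an3-4, against 4468 and 3943 in wild type. The genotypes overlapped, and the log2 fold change was 0.05 ± 0.08 (limma adjusted p = 0.740) with a 95% interval of -0.12 to 0.22. Of the 18 genes on the list of endoplasmic reticulum bodies, PYK10 included, 7 had a named single-gene probe set and 6 were tested. Of these 6, 2 were higher and none lower, beside 6.57% higher and 5.79% lower over all probe sets tested. NAI1 and the lectin genes JAL22 and JAL34 were not called, with log2 fold changes of 0.22, -0.17 and -0.11. JAL33, a jacalin-related lectin gene of the PYK10 complex, had 1576 and 1525 in an3-4, against 1323 and 1158 in wild type (log2 fold change 0.33 ± 0.08, limma adjusted p = 0.0215). NAI2, needed for these bodies to form, had 1242 and 1218 in an3-4, against 1041 and 993 in wild type (log2 fold change 0.27 ± 0.08, limma adjusted p = 0.0334). Neither was called on the deposited scale (adjusted p = 0.859 for JAL33 and 1.0 for NAI2), and NAI2 lost its call without any 1 of the 4 arrays (adjusted p from 0.0631 to 0.162). JAL33 kept its call only without wild-type replicate 1 (adjusted p = 0.0141), and had adjusted p of 0.115 without an3-4 replicate 1, 0.061 without an3-4 replicate 2 and 0.179 without wild-type replicate 2.

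Other glucoside pathways were thinly covered. Of the 15 listed genes of indole glucosinolates, the substrates of the related enzyme PEN2, only UGT74B1 was named, and its log2 fold change was 0.00 ± 0.10 (limma adjusted p = 0.990). The lists of myrosinase partners, sulfur deficiency and dark or sugar starvation had no named gene other than BGLU28. The myrosinase genes TGG1 and TGG2 were not analysed here. Of the list for coumarins and iron deficiency, PYK10 was the only gene without a BGLU symbol that was named.

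**Figure D5:**
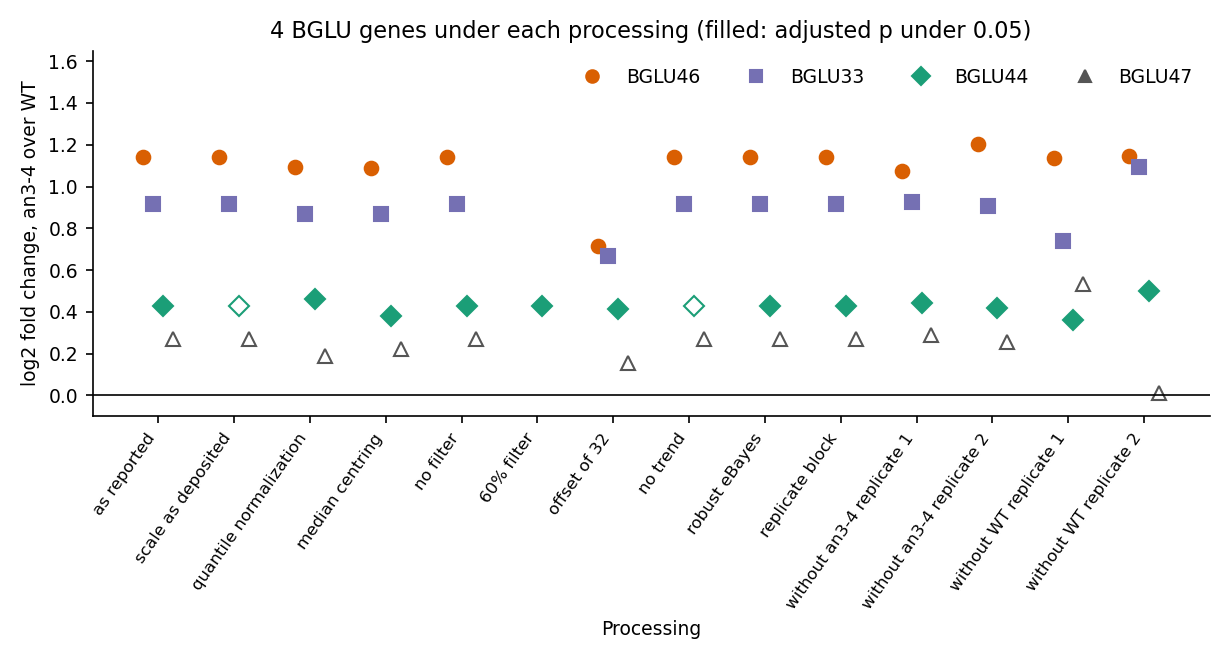
Log2 fold change of an3-4 over wild type for BGLU46, BGLU33, BGLU44 and BGLU47 under each processing, filled where the limma adjusted p was under 0.05. BGLU46 and BGLU33 are filled wherever they were tested, BGLU44 is open on the deposited scale and without the trend, and BGLU47 is open throughout.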

How the data were processed

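The deposited table gives a linear signal intensity for each of 22810 probe sets, 64 of them controls. The authors made these values with MAS5, per the submitters' processing notes, a method that subtracts background and scales each array. The version and the scaling target are not given in the sources used here. Means trimmed by 2% at each end were 143 on both arrays numbered 1 and 169 on both numbered 2, a log2 gap of 0.24, so every array was first brought to 1 trimmed mean (155.5). This does not alter the fold changes and takes the gap out of the spread, with a median residual SD of 0.11 in place of 0.20.

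log2 signals were fitted in limma 3.58.1 under R 4.3.3 (lmFit, eBayes with trend, genotype only) without controls and the dimmest 40% of probe sets by mean, with calls at an adjusted p (Benjamini-Hochberg) under 0.05 over 13648. Array number limits precision. Alternatives are named in the closing section. Names came from the platform annotation, updated through RefSeq TAIR10.1. Members and lists were chosen with earlier results of these data known. All 10 members are named, and from each list the called genes, up to 4, or else the 2 of smallest p. For the UGT72 genes and the endoplasmic reticulum bodies the other tested genes are given too. On simulated arrays with 13648 probe sets, 50 were changed by each of 0.5, 1, 1.5 and 2 (log2). Of the changes of 0.5, 58% were recovered, and of the changes of 1, 94%. There were 186 calls, 10 of them false. On the real arrays 12.4% of probe sets were called, a larger share than was changed here, so these rates need not carry over.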

Additional observations from a re-analysis of the deposited data

How the results depend on the processing

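The count of higher BGLU genes, 3, was 1 with the 60% filter, which left BGLU33 and BGLU46 untested, and 1 of the 9 past the signal filter, BGLU46, where each an3-4 signal had to be at least 2-fold above both wild-type signals, with no test. It was 2 on the deposited scale and without the trend, where BGLU44 lost its call, and 3 under the other settings, leaving out any 1 array included. The count of lower BGLU genes was 0 in all of them. Over all probe sets, the 896 higher and 790 lower became 197 and 196 on the deposited scale, 545 and 446 without the trend, and 66 and 83 by the 2-fold rule. With 1 array left out, 475 to 681 probe sets were higher and 498 to 563 lower: 475 and 550 without an3-4 replicate 1, 586 and 563 without an3-4 replicate 2, 681 and 546 without wild-type replicate 1, and 593 and 498 without wild-type replicate 2. In these fits the spread of the single remaining array of a genotype is taken from the other genotype. Quantile normalization, median centring, no filter, an offset of 32, robust eBayes and an adjusted p under 0.1 kept both counts within 1.5 times. With the replicate block the counts were 1170 and 985, and the same 3 BGLU genes were called, at adjusted p of 2.62e-04 for BGLU46, 2.26e-04 for BGLU33 and 2.72e-04 for BGLU44. The same-numbered arrays share a number and, as deposited, a scale. With all arrays at 1 trimmed mean, which removes that shared scale, their deviations from the genotype means correlated at 0.0355. Raising signals to the 40th percentile was chosen after the data were examined. Every BGLU gene named by the annotation had 1 single-gene probe set, so other probe sets could not be tried.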
